A study of Sus scrofa with 9 samples.

Results

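The heat shock protein and DNAJ co-chaperone genes were examined by RNA-seq in the abdominal aorta. The animals were male Tibetan minipigs, a miniature breed used as a model of diet-induced vascular disease. Members were the genes whose name begins with HSPA, HSPB, HSPD, HSPE, HSPH, DNAJA, DNAJB or DNAJC and a number, or with HSP90, together with BAG3, HSF1, HSF2 and HSF4. Of 21357 genes in the table, 64 met this rule, and no gene name in the table began with HSP90. The group was proposed because some of these genes had already stood out in the same libraries, so the differences below describe the libraries and are not independent evidence.

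There were 3 groups of 3 libraries, each library from 1 pig. NC pigs were normal controls on a normal diet for 24 weeks. H8 pigs had hypercholesterolemia after a high-fat diet for 8 weeks, and H24 pigs had atherosclerosis after a high-fat diet for 24 weeks. The study's methods describe the diet of the 24-week model as high in both fat and cholesterol. The labels give no age and no control group fed a normal diet for 8 weeks, so the time on the diet, the age and the day of sampling cannot be told apart from the group in any comparison with H8. All pigs were of the same breed, with no transgene named, and the disease states were induced by the diet alone.

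Heat shock proteins are molecular chaperones that bind unfolded proteins and keep them from aggregating. HSP70 proteins (the HSPA genes) use cycles of ATP binding and hydrolysis, DNAJ proteins (also called HSP40) deliver substrates to HSP70 and stimulate its ATPase, and HSPH and HSPA4 proteins act as nucleotide exchange factors for it. Small heat shock proteins (HSPB) hold unfolded proteins without using ATP, and BAG3 links HSP70 to small heat shock proteins and to autophagy. Part of the family is made at all times, while another part is induced through the transcription factor HSF1 when proteins unfold. In the artery wall, smooth muscle cells contain much HSPB1 and HSPB6, which are known to bind or regulate the contractile cytoskeleton.

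Levels are given in FPKM (fragments scaled by transcript length and by the depth of the library), which allows genes to be compared per length. Whether groups overlapped was judged on FPKM, while fold changes came from counts with TMM, another scaling between libraries, so these readings can differ. A gene was called up or down by the thresholds of the study, that is, when its log2 fold change was above 1 or under -1 and its unadjusted p was under 0.05 in edgeR's quasi-likelihood test. Adjusted p-values are from the same test with Benjamini-Hochberg adjustment over all tested genes. By edgeR no member had an adjusted p under 0.05 in any comparison, where 0.0279% of all tested genes passed in H8/NC, 0% in H24/NC and 0.0135% in H24/H8. DESeq2, run as an alternative, gave 10 of 58, 1 of 59 and 11 of 59 tested members with an adjusted p under 0.05 in these comparisons. Over all tested genes DESeq2 gave 825 of 14336, 993 of 14828 and 738 of 14788. Every "±" beside a log2 fold change is a standard error, and the p-values measure the spread between 3 pigs a group.

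Total counts ranged from 44094263 to 75787978 per library. H24 replicate 3 stood apart, with correlations of log2 CPM across genes of 0.837 to 0.914 with the other libraries, against 0.928 to 0.969 among those others. Its 12 smooth muscle markers summed to 1833 FPKM, against 8686 to 14864 in the other 8 libraries, and its 12 macrophage and monocyte markers summed to 3211 FPKM, against 35.8 to 458. In the other libraries smooth muscle markers were thus abundant, as the aortic label implies, while striated muscle markers summed to 0.541 to 2.24 FPKM.

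Of the 64 members, 54 had a mean of at least 1 FPKM over the 9 libraries, 32 had at least 10 and 3 had at least 100. The last were HSPB1, HSPA8 and HSPA5. After the filter on a mean of 0.1 FPKM, 58 members were tested in H8/NC and 59 in each of H24/NC and H24/H8. DNAJB7, DNAJB8, DNAJC5B, DNAJC22 and HSPB3 were tested in none, and DNAJC5B had no count in any library. In 29 members the gene overlapped another gene. Whether the counting used the strand is not stated, so reads of such pairs may have been shared.

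Together the members summed to 1201, 1317 and 1404 FPKM in NC, to 2175, 3191 and 1839 in H8 and to 1113, 1353 and 1067 in H24. All 3 H8 libraries therefore lay above all NC and H24 libraries, and the NC and H24 ranges overlapped. In H8 the members took 0.678% to 1.08% of all FPKM, against 0.449% to 0.529% in NC and 0.343% to 0.496% in H24.

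In H8/NC, 10 members were called up and none was called down. These were DNAJB1, DNAJB4, DNAJA1, DNAJA4, HSPA8, HSPA4, HSPH1, HSPA1L, HSPB1 and BAG3, which encode cytosolic chaperones and co-chaperones. Over all 14336 tested genes, 5.11% were called up and 2.27% down. At an unadjusted p under 0.05 there were 14 members, all higher in H8, where 14.8% of all tested genes passed in either direction. The median log2 fold change of the 58 tested members was 0.07 against 0.01 for all tested genes, so the typical member was close to the typical gene. Groups did not overlap for 11 members that were higher in H8 (6.91% of all tested genes) and 8 that were lower (15.9%).

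**Figure D1:**
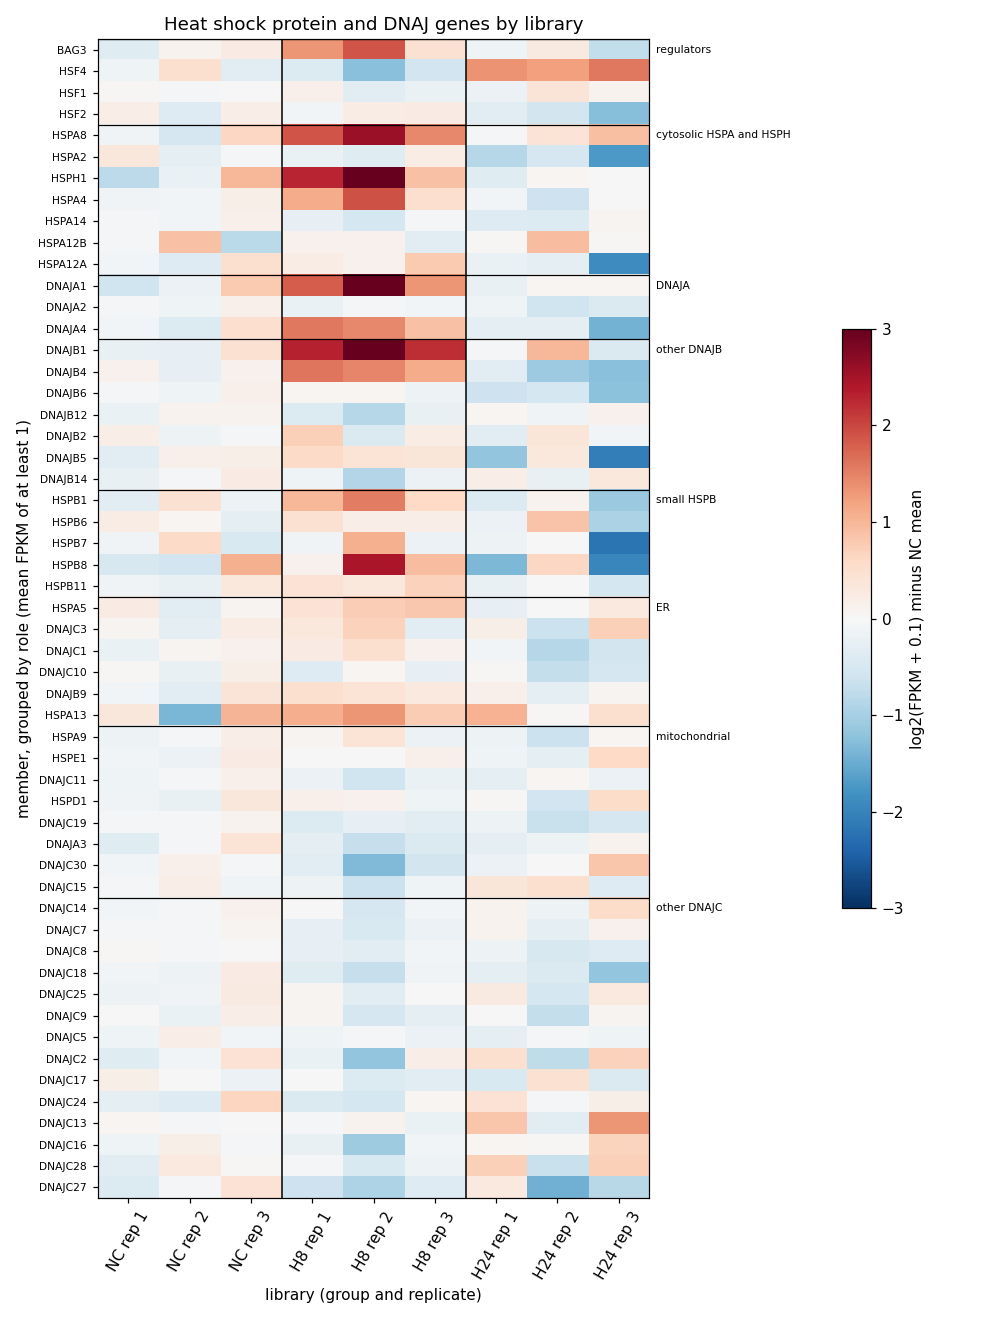
Each row is a member with a mean of at least 1 FPKM, grouped by role, each column is a library, and the colour gives log2(FPKM + 0.1) minus the mean of the 3 NC libraries. The 3 H8 columns are red mainly in cytosolic HSPA and HSPH, DNAJA, DNAJB and small HSPB rows, and the mitochondrial and other DNAJC rows stay pale in most libraries.

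DNAJB1, a co-chaperone of HSP70 and a classical heat shock gene on chromosome 2 (64761206 to 64765510, Sscrofa11.1), stood highest of the members by log2 fold change in H8/NC. Its level was 24.3, 23.7 and 39.1 FPKM in NC, 141, 304 and 131 in H8 and 27.1, 56.3 and 20.9 in H24. Every H8 library lay above all others, and H8 was 7.47-fold above NC (log2 fold change 2.90 ± 0.43, adjusted p = 0.0932). DNAJB4, a related co-chaperone on chromosome 6 (135243932 to 135281370), was at 31.6, 24.6 and 31.8 FPKM in NC, at 89.0, 80.0 and 62.8 in H8 and at 23.2, 13.7 and 12.2 in H24. It had the smallest adjusted p of all members in H8/NC (0.0688, log2 fold change 1.54 ± 0.20). Its H8 libraries lay closer together than those of DNAJB1, and all H24 libraries lay below all NC libraries (log2 fold change -0.87 ± 0.28, adjusted p = 0.250).

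Of the 3 cytosolic DNAJA genes, DNAJA1 and DNAJA4 were called up in H8/NC and DNAJA2 was not; the mitochondrial DNAJA3 is given with that compartment. DNAJA1, a cytosolic HSP70 partner on chromosome 10 (33430985 to 33445584), was at 13.1, 17.5 and 34.3 FPKM in NC, at 69.8, 157 and 50.2 in H8 and at 17.0, 20.6 and 20.7 in H24. The H8 libraries did not overlap the others (log2 fold change H8/NC 2.28 ± 0.56, adjusted p = 0.201). DNAJA4 was at 3.69, 2.90 and 5.54 FPKM in NC, at 11.96, 10.8 and 7.28 in H8 and at 3.14, 3.22 and 1.39 in H24, again with H8 apart (log2 fold change H8/NC 1.46 ± 0.30, adjusted p = 0.182). The DNAJA4 gene overlaps WDR61, at a mean of 8.36 FPKM. The DNAJA1 gene overlaps SMU1 and APTX, the more abundant at a mean of 15.1 FPKM. Reads of both DNAJA genes may thus have been shared. DNAJA2, which is also cytosolic, was at 23.9, 22.4 and 27.0 FPKM in NC and at 21.3, 23.2 and 22.8 in H8, which overlapped. In H24 it was at 22.2, 16.2 and 18.1 FPKM.

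The cytosolic HSPA and HSPH genes differed among themselves, with 4 of 9 called up in H8/NC. HSPA8, the constitutive cytosolic HSP70 on chromosome 9 (49978078 to 49987088), was at 67.7, 51.7 and 113 FPKM in NC, at 272, 444 and 198 in H8 and at 71.9, 98.0 and 137 in H24. H8 was 4.44-fold above NC without overlap (log2 fold change 2.15 ± 0.42, adjusted p = 0.170), and H24 overlapped NC. HSPH1, an exchange factor of HSP70 on chromosome 11 (7733878 to 7759528), was at 8.22, 12.4 and 28.4 FPKM in NC, at 69.7, 151 and 26.4 in H8 and at 11.05, 14.8 and 14.3 in H24. Its H8 replicate 3 lay below NC replicate 3, so the groups overlapped in spite of a log2 fold change of 2.53 ± 0.73 (adjusted p = 0.223). HSPA4, another exchange factor, was at 6.83, 6.96 and 8.36 FPKM in NC, at 15.9, 27.7 and 10.5 in H8 and at 7.00, 4.78 and 7.24 in H24 (log2 fold change H8/NC 1.46 ± 0.38, adjusted p = 0.206).

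HSPA2, an HSP70 gene known best from the testis, did not follow these genes. Its level was 64.9, 42.1 and 48.8 FPKM in NC, 44.4, 39.5 and 59.99 in H8 and 28.2, 35.8 and 15.4 in H24. NC and H8 overlapped (log2 fold change 0.02 ± 0.20), while every H24 library was below every NC and H8 library. HSPA1L, named after its values were seen because it was called, was at 0.264, 0.486 and 0.432 FPKM in NC and at 0.442, 1.06 and 1.10 in H8, which overlapped (log2 fold change 1.27 ± 0.51, adjusted p = 0.310). It lies on chromosome 7 (23909960 to 23914517) next to the far more abundant HSP70.2, a gene close to it in sequence, so the assignment of its reads is uncertain.

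The inducible HSP70 gene itself is outside the naming rule, as its row has no gene name in the table. Its gene identifier is HSP70.2 in the reference table (synonyms HSPA1A and HSPA1B), on chromosome 7 (23915072 to 23929754). It was at 40.7, 33.2 and 62.2 FPKM in NC, at 380, 803 and 927 in H8 and at 45.5, 117 and 31.4 in H24. H8 was 17.2-fold above NC, more than any member (log2 fold change 4.10 ± 0.42, adjusted p = 0.0556), while H24 overlapped NC (log2 fold change 0.50 ± 0.52). For this gene H8 replicate 3 was the highest library. HSP90AB1, a constitutive cytosolic HSP90 also without a name in the table, was at 86.3, 88.5 and 92.7 FPKM in NC and at 99.7, 128 and 94.4 in H8 (log2 fold change 0.42 ± 0.20, adjusted p = 0.384).

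**Figure D2:**
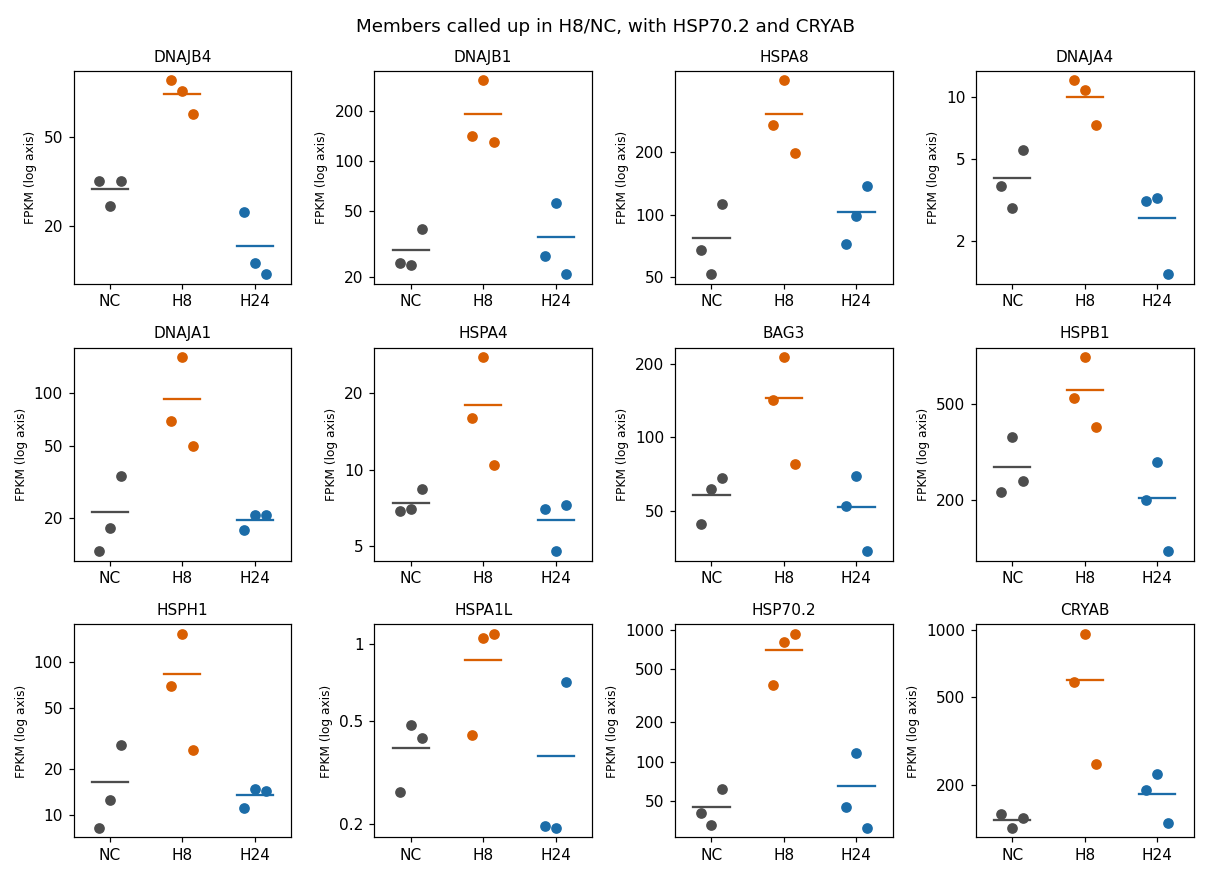
FPKM on a log axis in NC, H8 and H24 for the 10 members called up in H8/NC and for HSP70.2 and CRYAB, which are not members; points are the 3 libraries of a group and lines their means. Every H8 library is above every NC library in all panels but HSPH1 and HSPA1L. The H24 points overlap the NC points in all panels but DNAJB4, where they lie below. In several panels, among them HSPA8, DNAJB1, HSP70.2 and CRYAB, an H24 point lies above every NC point.

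Among the small heat shock proteins, 1 of 5 tested genes was called up in H8/NC, and all 5 had a positive log2 fold change. HSPB1, the member with the highest level, on chromosome 3 (10037946 to 10039704), was at 215, 366 and 240 FPKM in NC, at 528, 778 and 402 in H8 and at 201, 287 and 123 in H24. The H8 libraries were all above the others (log2 fold change H8/NC 1.21 ± 0.34, adjusted p = 0.219). HSPB6, a smooth muscle protein, was at 96.5, 86.2 and 67.9 FPKM in NC, at 114, 94.6 and 94.7 in H8 and at 72.8, 151 and 42.6 in H24, with overlap throughout. HSPB6 overlaps an unnamed antisense gene, and the reads of the pair cannot be told apart without strand. HSPB8, a partner of BAG3 named after its values were seen, was at 23.1, 21.9 and 67.7 FPKM in NC, at 35.5, 179 and 61.4 in H8 and at 12.8, 50.2 and 8.30 in H24. Its H8 mean rested on replicate 2, and its log2 fold change H8/NC was 1.49 ± 0.71 with all libraries and 0.44 without that replicate.

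BAG3 was at 44.2, 61.6 and 68.1 FPKM in NC, at 143, 212 and 78.0 in H8 and at 52.5, 69.2 and 34.4 in H24. All H8 libraries lay above all others (log2 fold change H8/NC 1.48 ± 0.40, adjusted p = 0.209). HSF1, the main heat shock transcription factor, was at 10.3, 9.52 and 10.1 FPKM in NC, at 11.02, 8.04 and 8.71 in H8 and at 8.83, 13.1 and 10.8 in H24. Its log2 fold change was 0.02 ± 0.15 in H8/NC, and the groups overlapped in all comparisons. The HSF1 gene overlaps other genes, the most abundant at a mean of 20.6 FPKM, so reads may have been shared. HSF1 protein is activated after translation, which these data do not measure. HSF2 was at 4.90, 3.22 and 4.95 FPKM in NC, at 4.04, 5.04 and 5.09 in H8 and at 3.33, 2.89 and 1.71 in H24.

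Members of the endoplasmic reticulum and of mitochondria were not called in any comparison. HSPA5 (BiP), the HSP70 of the endoplasmic reticulum, was at 126, 84.2 and 112 FPKM in NC, at 143, 176 and 185 in H8 and at 88.8, 106 and 129 in H24. H8 lay above NC without overlap, at a log2 fold change of 0.80 ± 0.20 (adjusted p = 0.204), which is under the threshold of fold change. DNAJC3, an HSP70 partner of the same compartment, was at 20.6, 16.0 and 22.8 FPKM in NC, at 24.3, 31.5 and 15.5 in H8 and at 21.99, 12.5 and 32.4 in H24, with overlap throughout. The 6 members assigned to this compartment had a median log2 fold change of 0.47 in H8/NC. DNAJB12 and DNAJB14, also proteins of the endoplasmic reticulum, were counted with the DNAJB genes instead (log2 fold change -0.36 and -0.28 in H8/NC). DNAJC14, DNAJC16, DNAJC18 and DNAJC25, with a known or predicted place there, were counted with the other DNAJC genes. Their log2 fold changes in H8/NC were -0.06, -0.30, -0.25 and 0.03. The median of 0.47 therefore depends on how members were assigned to roles.

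The mitochondrial HSP70, HSPA9, was at 42.4, 45.6 and 54.1 FPKM in NC, at 50.3, 63.1 and 41.8 in H8 and at 42.2, 30.3 and 48.9 in H24. HSPE1, the co-chaperonin of HSPD1, was at 27.6, 25.9 and 34.5 FPKM in NC, at 29.0, 29.4 and 32.5 in H8 and at 26.6, 24.1 and 43.9 in H24. The groups of both genes overlapped. DNAJA3 was at 8.97, 11.2 and 15.3 FPKM in NC, at 9.48, 7.07 and 8.50 in H8 and at 9.59, 10.4 and 12.5 in H24. DNAJC30 was at 3.49, 4.13 and 3.54 FPKM in NC, at 2.90, 1.42 and 2.499 in H8 and at 3.29, 3.65 and 6.64 in H24. DNAJC30 was thus lower in every H8 library than in every NC library, but at a log2 fold change of -0.58 ± 0.38 (adjusted p = 0.516). Such a separation was seen for 15.9% of all tested genes. The 8 mitochondrial members had a median log2 fold change of -0.19 in H8/NC.

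The other DNAJC genes, a few of which serve clathrin uncoating, splicing or ribosome-bound folding, formed the largest role with 18 members. Of these, 16 were tested and none was called in any comparison. Their median log2 fold change was -0.14 in H8/NC and -0.01 in H24/NC. DNAJC14 was at 28.0, 28.6 and 32.1 FPKM in NC, at 29.2, 20.8 and 27.8 in H8 and at 31.7, 26.7 and 43.6 in H24. DNAJC7, which binds both HSP70 and HSP90, was at 20.8, 21.4 and 23.1 FPKM in NC, at 18.2, 15.7 and 19.2 in H8 and at 23.3, 17.7 and 23.8 in H24. DNAJC7 was lower in every H8 library than in every NC library, by a small amount (log2 fold change -0.16 ± 0.14). Such a separation was seen for 15.9% of all tested genes. DNAJC18 was at 14.1, 13.5 and 17.7 FPKM in NC, at 11.6, 9.27 and 14.0 in H8 and at 12.4, 10.99 and 6.53 in H24. DNAJC13, an endosomal protein, was at 2.01, 1.86 and 1.93 FPKM in NC, at 1.86, 2.09 and 1.69 in H8 and at 3.50, 1.52 and 5.02 in H24. Its H24 libraries lay on both sides of the NC range. DNAJC16 was at 2.02, 2.48 and 2.12 FPKM in NC, at 1.88, 1.005 and 2.07 in H8 and at 2.31, 2.25 and 3.52 in H24. DNAJC28 was at 0.971, 1.54 and 1.28 FPKM in NC, at 1.21, 0.872 and 1.11 in H8 and at 2.09, 0.747 and 2.10 in H24. DNAJC27 was at 0.992, 1.32 and 1.85 FPKM in NC, at 0.832, 0.663 and 1.001 in H8 and at 1.68, 0.434 and 0.717 in H24. None of these genes had an unadjusted p under 0.05.

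The remaining DNAJB genes named here were not called in H8/NC. DNAJB6 was at 20.5, 19.3 and 23.2 FPKM in NC, at 21.99, 21.8 and 18.9 in H8 and at 13.7, 14.6 and 8.89 in H24, with all H24 libraries below all others. DNAJB12 was at 13.6, 16.7 and 16.7 FPKM in NC, at 11.6, 8.62 and 13.2 in H8 and at 16.2, 14.5 and 17.0 in H24. DNAJB14, like DNAJB12 a membrane protein of the endoplasmic reticulum that faces the cytosol, was at 1.72, 1.98 and 2.44 FPKM in NC, at 1.83, 1.06 and 1.77 in H8 and at 2.34, 1.73 and 2.54 in H24. DNAJB12 was lower in every H8 library than in every NC library (log2 fold change -0.36 ± 0.18, adjusted p = 0.395), and DNAJB14 overlapped. The separation of DNAJB12 was shared by 15.9% of all tested genes.

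**Figure D3:**
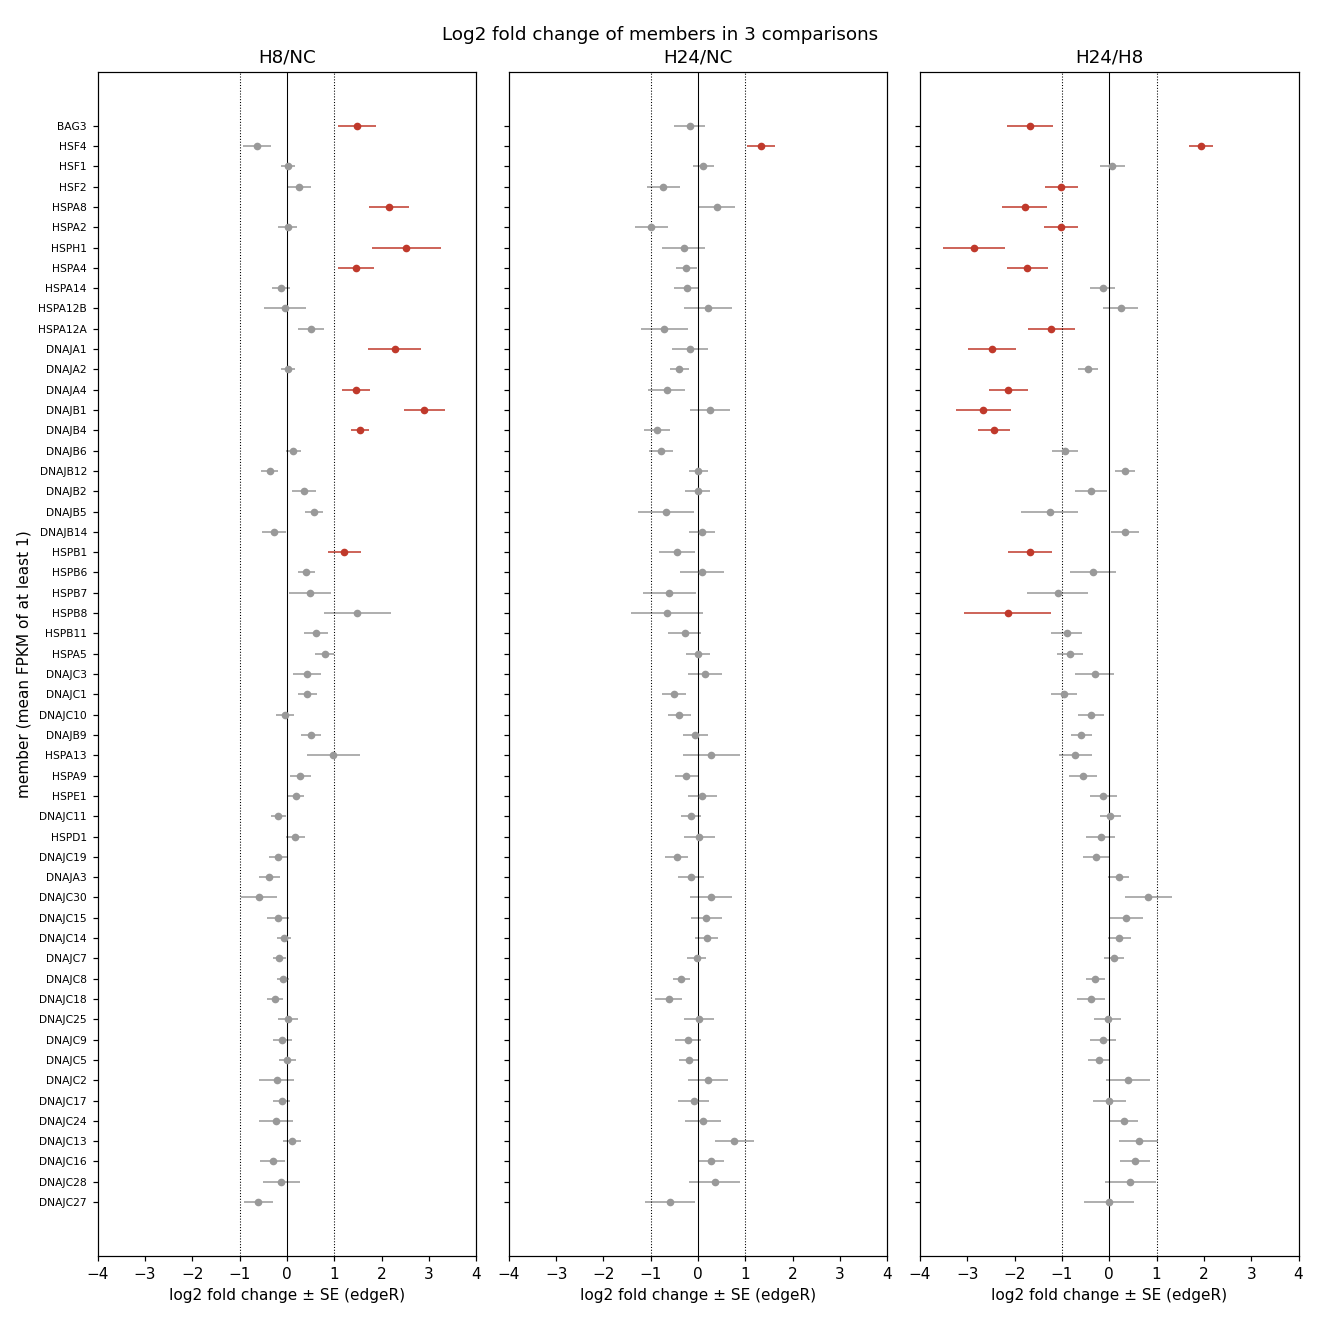
Log2 fold change with its standard error in H8/NC, H24/NC and H24/H8 for the members with a mean of at least 1 FPKM, in the same order by role; red marks called genes and dotted lines a log2 fold change of 1 in either direction. The called points of H8/NC lie between 1.21 and 2.90, and the same genes lie between -0.87 and 0.39 in H24/NC.

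The 10 genes called up in H8/NC did not stand equally high in all H8 libraries. Against the NC mean their median on the log2 scale was 1.58, 1.89 and 0.97 in H8 replicates 1 to 3, while the NC libraries were at -0.30, -0.27 and 0.33. Replicate 2 was the highest H8 library for 7 of these genes, and replicate 3 was the lowest for 9. Without H8 replicate 2, 7 members were called up, and HSPA4, HSPB1 and HSPA1L were not among them. HSPA1L kept its call in 5 of the 14 alternatives that tested it.

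Genes that work with the members were examined in 4 further lists. Of 20 other co-chaperones tested, 3 were called up in H8/NC and none down, with a median log2 fold change of 0.15. CRYAB, the small heat shock protein alpha B-crystallin, was at 148, 128 and 142 FPKM in NC, at 581, 956 and 250 in H8 and at 190, 224 and 134 in H24 (log2 fold change H8/NC 2.28, adjusted p = 0.187). The others were BAG2 (log2 fold change 1.25) and CHORDC1 (1.05). Of 15 further known targets of HSF1 tested, 5 were called up in H8/NC, with a median of 0.81. They were ZFAND2A (log2 fold change 2.65), IER5 (2.56), CHAC1 (1.60), JMJD6 (1.09) and CHORDC1, which stands in both lists. CHAC1 was low, at 0.185, 0.254 and 0.327 FPKM in NC and at 0.312, 1.22 and 0.516 in H8, which overlapped. Of 23 genes of folding and the unfolded protein response in the endoplasmic reticulum, none was called in H8/NC, 22 had a positive log2 fold change and the median was 0.30. None of 11 tested genes of the TRiC chaperonin and prefoldin was called in any comparison.

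Immediate early genes respond within minutes to many stimuli. Of 19 tested, 9 were called up in H8/NC and none down, with a median log2 fold change of 1.09; JUNB was listed at 0 in every library. The 20 genes of this list summed to 1260, 3140 and 4212 FPKM in NC, to 7899, 6003 and 2461 in H8 and to 2979, 2437 and 1144 in H24. H8 replicate 3 lay within the NC range of this sum. In that library 5 of the 20 immediate early genes (JUN, ATF3, IER3, DUSP1 and KLF4) were above all NC libraries, against 15 and 14 in H8 replicates 1 and 2. In H8 replicate 3, the same held for 9 of the 10 members called up in H8/NC, HSPH1 being the exception. Those 10 members were chosen by their call in H8/NC and the immediate early list was not, so these counts cannot be compared. The part of the immediate early genes in the result was not tested.

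Macrophage and monocyte markers were called up for 9 of 12 genes in H8/NC. They summed to 58.0, 35.8 and 41.7 FPKM in NC, to 325, 55.4 and 191 in H8 and to 458, 289 and 3211 in H24, and none of the 12 was at 0 throughout. H8 replicate 2 was within the NC range of this sum. For 5 of the 12 markers every H8 library, this one included, lay above every NC library (6.91% of all tested genes). Smooth muscle markers summed to 12430 to 14864 FPKM in NC and 10989 to 14592 in H8, with 1 of 12 called up. Fibroblast markers summed to 1408 to 1650 FPKM in NC and 2220 to 3479 in H8, with 2 of 6 called up, and 3 of 6 adipocyte markers were called down. The part of the macrophage, fibroblast and adipocyte markers in the result was not tested. T cell markers summed to 0.350 to 0.510 FPKM in NC and 0.927 to 0.972 in H8, with 1 of 3 tested genes called up. The endothelial, B and plasma cell, striated muscle, erythroid and nerve lists had no call in H8/NC.

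**Figure D4:**
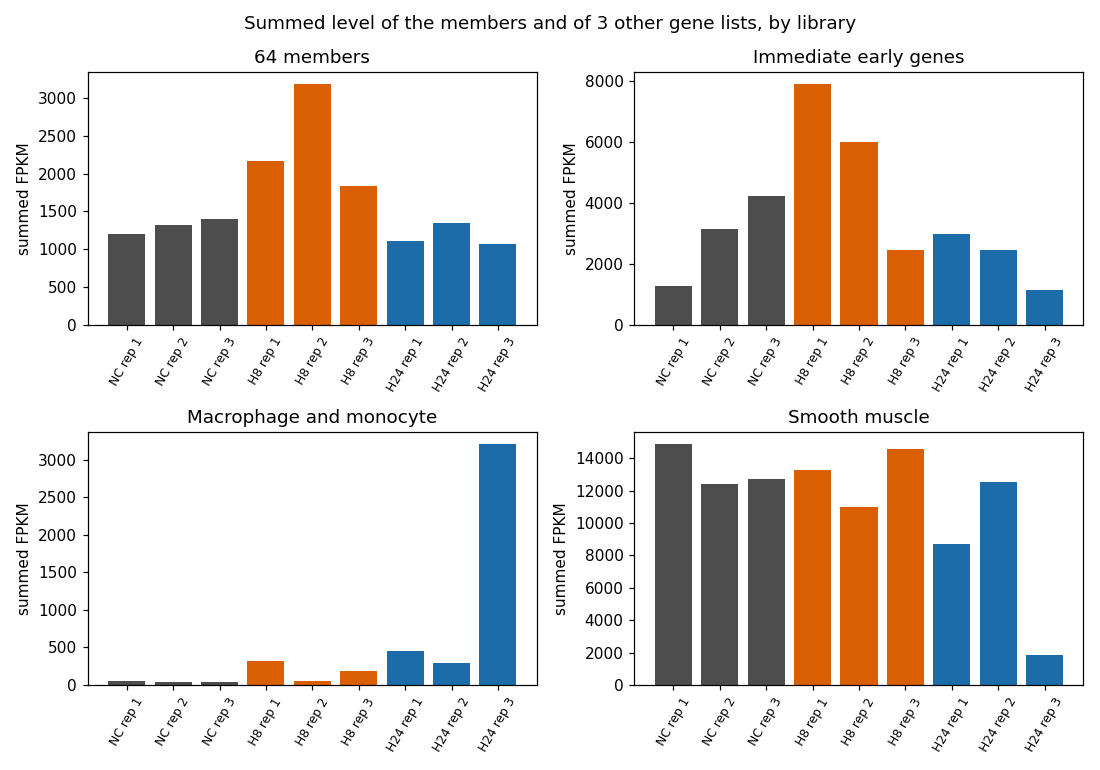
Bars give the summed FPKM in each library of the 64 members, the immediate early genes, the macrophage and monocyte markers and the smooth muscle markers. The members are highest in the 3 H8 libraries, the immediate early genes in H8 replicates 1 and 2, the macrophage markers in H24 replicate 3, and the smooth muscle markers are lowest in H24 replicate 3.

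In H24/NC, after 24 weeks of either diet, 2 members were called up, HSF4 and DNAJB13, and none down. Over all 14828 tested genes, 9.95% were called up and 1.52% down. At an unadjusted p under 0.05 there were 5 members, 2 higher and 3 lower in H24 (13.9% of all tested genes in either direction). The median log2 fold change was -0.12 over the 59 tested members and 0.01 over all tested genes. Groups did not overlap for 1 member that was higher in H24 (12.8% of all tested genes) and 7 that were lower (7.8%). Of the 10 members called up in H8/NC, 9 had overlapping NC and H24 libraries, and DNAJB4 was lower in H24.

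HSF4, a heat shock factor known for its role in the lens, was highest in H24, unlike the genes called up in H8/NC. It was at 13.5, 20.7 and 11.8 FPKM in NC, at 11.3, 6.22 and 10.0 in H8 and at 38.0, 35.3 and 44.8 in H24. All H24 libraries lay above all others, 2.51-fold above NC (log2 fold change 1.33 ± 0.29, adjusted p = 0.132), and all H8 libraries lay below all NC libraries (log2 fold change -0.63 ± 0.30, adjusted p = 0.378). An H8 group wholly below NC was seen for 15.9% of all tested genes. Without H24 replicate 3 the log2 fold change in H24/NC was 1.22. HSF4 lies on chromosome 6 (27809465 to 27813401), overlaps no gene of the table, and the nearest genes, at 1676 to 5444 bp, were not called in any comparison. Macrophage markers were called up for 12 of 12 genes and T cell markers for 4 of 6 in H24/NC, and the part of these cells in the level of HSF4 was not tested.

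**Figure D5:**
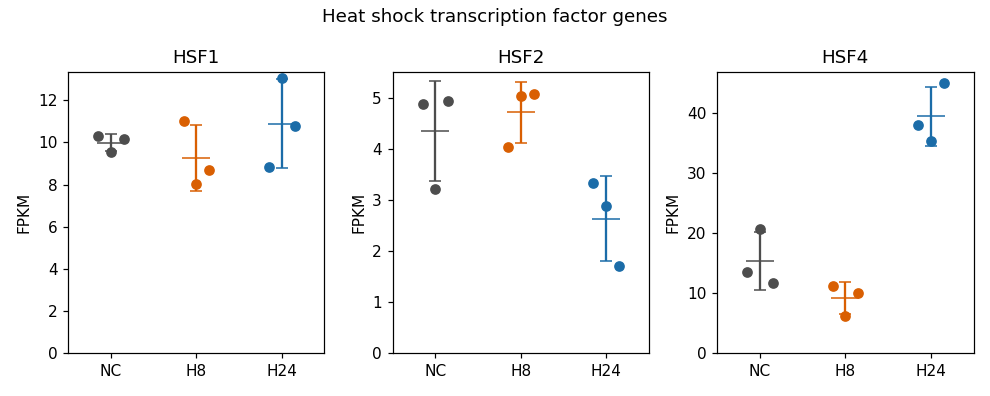
FPKM of HSF1, HSF2 and HSF4 in NC, H8 and H24; points are the 3 libraries of a group, horizontal marks the means and bars the SD. HSF4 lies between 35.3 and 44.8 FPKM in H24, above every other library, whereas HSF1 overlaps in all groups.

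Several abundant members were lower in H24 without reaching the threshold of fold change. HSPA2 had a log2 fold change of -0.99 ± 0.34 in H24/NC (adjusted p = 0.281) and DNAJB6 of -0.79 ± 0.25 (adjusted p = 0.246), and their H24 libraries were all below NC. HSPA2 was called down with limma on log2(FPKM + 0.1). Smooth muscle markers had a negative log2 fold change for 12 of 12 genes in H24/NC, with none called and a median of -0.88, and they summed to 8686, 12506 and 1833 FPKM in H24. In whole tissue, fewer cells of a type and less RNA per cell cannot be told apart. Without H24 replicate 3 the log2 fold change of HSPA2 was -0.71 and that of DNAJB4 was -0.70. DNAJB13, a gene of cilia and sperm tails named after its values were seen, had at most 33 counts in any library and none in NC replicates 2 and 3, so that no fold is given; without H24 replicate 3 it fell under the filter and was not tested, and it kept its call in 3 of the 11 alternatives that tested it.

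In H24/H8, which shares its H8 libraries with H8/NC, 13 members were called down and 1, HSF4, was called up. Over all 14788 tested genes, 3.05% were called down and 7.22% up. At an unadjusted p under 0.05 there were 19 members, 1 higher and 18 lower in H24 (13.7% of all tested genes in either direction). The median log2 fold change of the 59 tested members was -0.34 against 0.04 for all tested genes. Groups did not overlap for 18 members that were lower in H24 (6.31% of all tested genes) and 5 that were higher (15.5%). The members called down were the 9 named genes other than HSPA1L from the H8/NC list, together with HSF2, HSPA2, HSPA12A and HSPB8.

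The decrease from H8 to H24 was largest for HSPH1 (log2 fold change -2.86 ± 0.66), DNAJB1 (-2.66 ± 0.58), DNAJA1 (-2.48 ± 0.51) and DNAJB4 (-2.43 ± 0.33). The adjusted p was 0.336 for the first 3 of these and 0.215 for DNAJB4. HSPB8 (-2.15 ± 0.91), DNAJA4 (-2.14 ± 0.41), HSPA8 (-1.79 ± 0.48), HSPA4 (-1.74 ± 0.43), HSPB1 (-1.68 ± 0.46) and BAG3 (-1.68 ± 0.49) followed, while HSF4 was called up (1.93 ± 0.26, adjusted p = 0.215). HSPA12A, a distant HSP70 relative named after its values were seen, was at 2.996, 2.80 and 4.53 FPKM in H8 and at 2.22, 2.09 and 0.627 in H24. Without H24 replicate 3, 11 members were called down, and HSF2, HSPA2, HSPA12A and HSPB8 were not among them, while HSPA1L and HSPA4L were. Over all 15 alternatives HSF2, HSPA2 and HSPA12A kept their call in 7 and HSPB8 in 8. The 9 genes shared with the H8/NC list remained called without that library.

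The lists of cooperating genes were also read in the H24 comparisons. In H24/NC none of 20 other co-chaperones was called, 2 of 15 further HSF1 targets were called up (CLU and CHAC1), 1 of 23 genes of the endoplasmic reticulum list (EDEM1, log2 fold change 1.23) and 1 of 19 immediate early genes were called up, and none was called down in these lists. In H24/H8, 6 other co-chaperones were called down, among them CRYAB (log2 fold change -1.92), and 7 further HSF1 targets were called down and 1 (CLU) up. STIP1, AHSA1, FKBP4 and CHORDC1 stand in both of these lists, so the calls down were of 9 different genes. In the same comparison 7 immediate early genes were called down and 1 up. No gene of the endoplasmic reticulum list was called in H24/H8.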

How the data were processed

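RNA-seq was made from the abdominal aorta of 9 pigs, 3 each in NC, H8 and H24, grouped by the labels. The extraction text speaks of an adipose type, and the tissue labels were followed. The study's methods, which describe NC and H24, give poly(A) libraries, HISAT 2.0, Sscrofa11.1 and StringTie 1.3.0. The submitters' processing notes also list Bowtie 0.12.2 and a mouse build. Coordinates in the deposited file match Sscrofa11.1. The authors deposited FPKM values and, for each gene and library, an estimated count (whole numbers, not normalized). How these expected counts were derived, and the annotation release, are not given in the sources used here.

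The members and lists were chosen with earlier results of these data known. Counts of all genes were fitted with edgeR 4.0.16 (R 4.3.3, the data.table package, version 1.17.8; TMM, quasi-likelihood test, two-sided) on the 2 groups compared, keeping genes whose FPKM averaged 0.1 or more. Standard errors are the log2 fold change divided by the root of F. Named with values in every library were HSF1, HSF2, HSF4, BAG3, at most 6 members in each direction and comparison with the smallest p and a mean of at least 1 FPKM, and the 2 highest of each role. Alternatives were median-ratio factors, library size only (added after seeing the data), no filter, a filter at 1 FPKM, 1 fit of all 9 libraries, a replicate block, DESeq2 1.42.0, limma 3.58.1 on log2(FPKM + 0.1) and log2(FPKM + 1), and each library left out. On simulated data with 200 genes changed by a log2 fold change of 2, the call rule found 196 in H8/NC, 190 in H24/NC and 187 in H24/H8, and also called 229, 507 and 591 unchanged genes (of 14336, 14828 and 14788 in all); at an adjusted p under 0.05 it was 171, 138 and 126 changed and 7, 5 and 6 unchanged genes. The simulated counts followed the dispersion trend over genes, and changes were placed only in genes above a mean of 1 CPM. Genes that vary more than that trend were thus not represented. Depth was 44094263 to 75787978 counts, and 3 counts were taken as the floor, which covers counting error only. No sequence is shown, and the blood, histology, RT-PCR and protein measurements were not analysed here.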

Additional observations from a re-analysis of the deposited data

How the results depend on the processing

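The 10 members called up in H8/NC were higher in H8 under every alternative that tested them, and 9 or 10 members were called up in all alternatives that kept all libraries (7 to 11 with 1 library left out). None was called down in any of these. Over all genes the calls up in H8/NC ranged from 202 to 830 with all libraries kept. They ranged from 569 to 796 with 1 left out. The number with an adjusted p under 0.05 in H8/NC was 0, but 10 with DESeq2, 2 with limma on log2(FPKM + 0.1), and 0 to 1 with 1 library left out. Over all genes DESeq2 gave 825 such calls in H8/NC against 4, 993 in H24/NC against 0 and 738 in H24/H8 against 2. In H24/NC the 2 members called up became 1 (HSF4) with no filter, a filter at 1 FPKM, 1 fit of all libraries, DESeq2 and both limma fits, and 1 to 2 with 1 library left out. The 0 members called down became 1 (HSPA2) with both limma fits, and 0 to 3 with 1 library left out, the highest without H24 replicate 2 (DNAJB5, HSPA2 and HSPB8), then 2 without H24 replicate 1 (DNAJB4 and DNAJC27). Over all genes the calls down in H24/NC ranged from 141 to 314 with all libraries kept. They ranged from 137 to 456 with 1 left out, the highest again without H24 replicate 2. DESeq2 gave 1 member with an adjusted p under 0.05, HSF4. In H24/H8 the 13 members called down ranged from 9 (library size only) to 14, and from 10 to 17 with 1 library left out. Over all genes the calls down moved too, from 177 to 580 with all libraries kept. With 1 left out they ranged from 248 (without H8 replicate 2) to 684 (without H24 replicate 2). The 1 member called up ranged from 1 to 2, and DESeq2 gave 11 members with an adjusted p under 0.05 against 0. The cause was not tested. Scaling by library size only moved the median log2 fold change of all genes to -0.13 in H8/NC and 0.24 in H24/H8. No value changed its sign among those called.

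Replicate numbers are shared by the groups, but deviations of same-numbered libraries correlated at only -0.048 to 0.082, so the numbers were not taken as pairs. With the replicate block, 10 members were called up in H8/NC and 0 down, 1 up and 1 down in H24/NC, and 1 up and 14 down in H24/H8, with 0 at an adjusted p under 0.05 in each.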

Other observations

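Several relatives of the members have no gene name of their own in the table and so fell outside the naming rule. HSP90B1, the HSP90 of the endoplasmic reticulum, was at 102, 90.4 and 119 FPKM in NC, at 140, 130 and 158 in H8 and at 110, 103 and 138 in H24, and H8 did not overlap NC (log2 fold change 0.60 ± 0.15, adjusted p = 0.204 in edgeR's quasi-likelihood test). DNAJC21, a co-chaperone of ribosome assembly, was at 14.9, 14.4 and 20.8 FPKM in NC, at 16.7, 18.7 and 14.96 in H8 and at 12.7, 7.07 and 8.39 in H24, and was called down in H24/H8 (log2 fold change -1.04 ± 0.29, adjusted p = 0.336). DNAJB3 was listed at 0 in every library.

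CLU, the extracellular chaperone clusterin and a member of the list of HSF1 targets, had an order of levels unlike the cytosolic chaperones. It was at 101, 165 and 113 FPKM in NC, at 207, 120 and 81.0 in H8 and at 327, 343 and 753 in H24, and was called up in H24/NC (log2 fold change 1.88, adjusted p = 0.138) and in H24/H8 (1.61, adjusted p = 0.341).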
